A study of Mus musculus with 69 samples.

Results

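The early response of dorsal mouse skin to the phorbol ester TPA was compared between F1 hybrid and FVB mice 6 h after treatment. The quantity compared was a difference of differences on the log2 scale, the change of F1 skin from its untreated controls less the change of FVB skin from its own. It rests on 12 of the series' 69 Affymetrix arrays, chosen by strain and hours in their titles: 3 arrays of FVB skin at 0 h and 3 at 6 h, and 4 arrays of F1 skin at 0 h and 2 at 6 h. FVB/N is an inbred laboratory strain, and the F1 mice are FVB/N x Spret/Ei hybrids, in which 1 parent is an inbred line derived from Mus spretus. All mice were reared to 8 weeks and carried no transgene named in the labels. Backs were shaved before TPA in acetone was applied once, and 0 h skin is labelled as untreated. No vehicle arrays were among the samples, so shaving, acetone and TPA cannot be told apart. All FVB arrays belong to batch 1. F1 arrays at both times are divided between batches 2 and 3, with F1 replicate 1 of 6 h in batch 2 and replicate 2 in batch 3. Strain and batch therefore cannot be told apart for FVB, and only changes within a strain, not levels, were tested against each other. The labels do not say whether arrays came from separate mice, so errors and p-values measure spread between arrays, which may be technical. That spread was estimated for each gene over 66 arrays of the series, including other times and another strain, and not from the 12 alone.

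TPA mimics diacylglycerol and activates protein kinase C, which signals through the MEK and ERK kinases to AP-1 transcription factors and through IkappaB kinase to NF-kappaB. In mouse skin a single application is known for releasing EGF receptor ligands, chemokines and cytokines from keratinocytes within hours, followed by leukocyte entry and epidermal thickening. FVB/N mice are widely used in skin tumour promotion with TPA, and Mus spretus lines and their hybrids have been used to map resistance to it.

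The 12 arrays were alike in range. Their interquartile range lay between 3.48 and 3.69 log2 units and their median correlation with the other arrays between 0.941 and 0.970. The keratinocyte genes Krt5, Krt14 and Krt10 lay at log2 levels of at least 10.9 on all 12 arrays. Several arrays carried transcripts of other tissues or structures. The mean log2 level of 15 hair shaft and inner root sheath genes was 8.84 in F1 control replicate 1 and between 4.27 and 4.75 in the other F1 controls. The mean of 22 liver transcripts was 7.89 and 8.37 in FVB control replicates 2 and 3 and 5.16 in replicate 1, and at 6 h it was 7.40 in FVB replicate 2 and 6.15 and 6.17 in the others, against 5.05 to 5.77 on all F1 arrays. The mean of 15 skeletal muscle markers was 5.13 in F1 control replicate 2 and 7.19 to 7.68 in the other F1 controls. FVB replicate 3 of 6 h had the highest means of 13 pancreas transcripts, 7.87, of 12 T lymphocyte markers, 8.23, and of 15 neutrophil markers, 6.70. The arrays measure whole skin, so fewer cells of a type and less RNA per cell cannot be told apart.

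Promoter sequences of 3 genes that rose in both strains show the kind of site through which AP-1 and NF-kappaB are known to act, and were chosen after the values were seen. Each run holds the 250 bases before the RefSeq start of transcription on build GRCm38.p6, 5′ to 3′ on the gene's strand, from the C57BL/6J reference and not from FVB/N or Spret/Ei. Capitals mark matches, on either strand, to the AP-1 letters TGANTCA or to the NF-kappaB consensus, a near-palindrome that allows more than 1 base at several positions. The window of Cxcl1, a neutrophil-attracting chemokine, spans chr5:90890995-90891244 on the plus strand and holds 2 overlapping NF-kappaB matches, which begin 71 and 70 bases before the start.
Cxcl1: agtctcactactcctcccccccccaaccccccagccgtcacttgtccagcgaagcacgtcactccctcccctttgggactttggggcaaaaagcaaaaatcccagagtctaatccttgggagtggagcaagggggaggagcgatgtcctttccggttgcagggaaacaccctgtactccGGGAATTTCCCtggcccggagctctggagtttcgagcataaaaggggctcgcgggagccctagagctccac
The window of Il6, a cytokine of the acute phase, spans chr5:30012864-30013113 on the plus strand and holds 1 AP-1 match 249 bases and 1 NF-kappaB match 44 bases before the start.
Il6: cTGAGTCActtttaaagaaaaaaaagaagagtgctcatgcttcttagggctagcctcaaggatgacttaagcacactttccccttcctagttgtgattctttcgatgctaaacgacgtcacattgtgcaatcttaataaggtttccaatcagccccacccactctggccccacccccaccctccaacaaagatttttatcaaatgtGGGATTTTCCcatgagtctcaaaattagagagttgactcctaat
The window of Mmp13, a collagenase, spans chr9:7272264-7272513 on the plus strand and holds 1 AP-1 match 35 bases before the start.
Mmp13: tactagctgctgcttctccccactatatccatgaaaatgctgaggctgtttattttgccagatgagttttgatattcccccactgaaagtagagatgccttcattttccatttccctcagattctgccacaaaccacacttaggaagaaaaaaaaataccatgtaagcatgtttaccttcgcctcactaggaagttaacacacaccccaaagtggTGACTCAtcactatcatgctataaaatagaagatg
Of all 32851 promoter windows of this length, 6.75% held the AP-1 letters and 7.25% the NF-kappaB consensus. Windows were found for 586 of the 778 genes that rose in both strains, and 9.90% and 12.3% of them held a match. For 495 of the 633 genes that fell in both, the shares were 6.06% and 7.27%, and for the 14739 tested genes with a window, 5.92% and 7.85%. A match describes letters only and is not a bound site, and AP-1 and NF-kappaB matches do not overlap each other in the windows printed.

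A gene was called changed at a Benjamini-Hochberg adjusted p under 0.05 in limma with a log2 change of at least 1, which is 2-fold, in a two-sided test over 18820 genes. In FVB skin at 6 h 1213 genes rose, 6.45% of those tested, and 1106 fell, 5.88%. In F1 skin 1023 rose, 5.44%, and 937 fell, 4.98%. Of these, 778 rose in both strains, 4.13%, and 633 fell in both, 3.36%, and 0 were called in opposite directions. The genes called in both make up 60.8% of the FVB calls and 72.0% of the F1 calls. The 908 genes called in FVB alone had the same sign in F1 in 871 cases, with a median change of 1.17 in FVB and 0.744 in F1, in the FVB direction. The 549 genes called in F1 alone had the same sign in FVB in 525 cases, with medians of 1.20 in F1 and 0.765 in FVB. Counts of list members called, given below, stand against the shares of all genes given above.

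The difference between the strains was called for 0 of 18820 genes in limma, 0% of those tested, and the smallest adjusted p was 0.258. At an unadjusted p under 0.05 there were 731 genes, 3.88%, of which 390, 2.07%, had a change in F1 above that in FVB and 341, 1.81%, one below it. With both an unadjusted p under 0.05 and a difference of at least 1 there were 260 genes, 1.38%, 183 above FVB in F1 and 77 below. The size of a difference that these arrays could show was limited: the median standard error of the difference was 0.372, and the median 95% interval reached 0.750 to either side. The count of 0 was not the same under every setting. Without 2 arrays of narrow range outside the comparison, SPR at 12 h replicate 1 and F1 at 72 h replicate 2, which enter only through the shared estimate of spread, the median standard error was 0.299. Then 5 genes were called: Mtx2, Zfand2a and Zfp385b above FVB in F1, and Cwc22 and Pla2g2f below. In that fit 1599 genes, 8.50%, had an unadjusted p under 0.05 in limma, in place of 731. The fit on the 12 arrays alone called 11 genes (1883 at an unadjusted p under 0.05) and cyclic loess normalisation 10 (1470). A replicate block called 1, Zfp385b, as did leaving out FVB 6 h replicate 2, with an adjusted p of 0.0451. With the F1 arrays of batch 2 alone 0 genes were called in limma (470 at an unadjusted p under 0.05), and with those of batch 3 alone 0 (503).

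**Figure D1:**
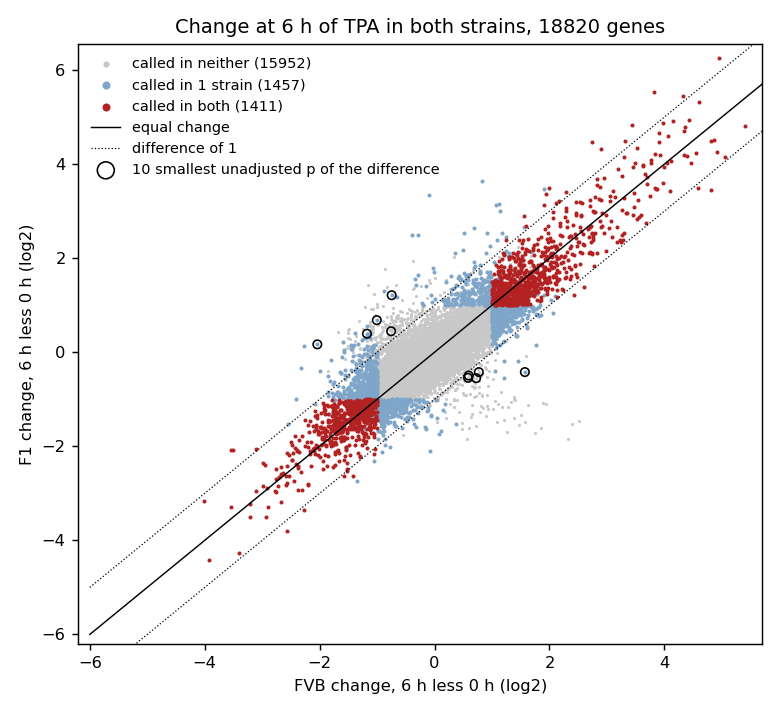
Log2 change at 6 h less 0 h of 18820 genes in FVB (horizontal) and F1 skin (vertical), 1 point a gene; red points were called in both strains, blue points in 1, and dotted lines mark a difference of 1. The 1411 red points were called in the same direction, so their equal sign follows from how they were chosen. The 10 circled genes of smallest unadjusted p lie in quadrants of opposite sign, which choice by the difference favours.

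Across the 18820 genes the changes in FVB and F1 had a Pearson correlation of 0.818 and a Spearman correlation of 0.722, with a total least squares slope of 0.968 for F1 on FVB. Genes are not independent replicates, and no test was made of these values. The 778 shared rises had a median of 1.56 in FVB and 1.55 in F1, and the 633 shared falls medians of -1.44 and -1.42. Of the 1411, 652 had the larger change in F1 and 759 in FVB. The F1 arrays stood on either side of FVB: the slope was 0.773 for replicate 1, in batch 2, and 1.24 for replicate 2, in batch 3. For single genes the shared response was measured to within a limit. The 95% interval of the difference lay between -1 and 1 for 472 of the 1411 genes called in both, 33.5%, against 49.2% of all genes tested, and between -2 and 2 for 1314 of them, 93.1%, against 95.4%. Without the 2 arrays of narrow range the interval lay within 1 for 760 of 1453 genes called in both and for 12551 of all genes tested. The F1 calls leaned on replicate 2 of 6 h: without it F1 had 825 calls in place of 1960, and 405 genes rose and 296 fell in both strains. Without FVB control replicates 2 and 3, which carried the liver transcripts, 594 rose and 599 fell in both.

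The 8 genes of largest mean change among the 472, 4 rises and 4 falls, were chosen for a shared change and illustrate it on each array. P2ry2, a nucleotide receptor that responds to extracellular ATP and UTP, lay at log2 levels of 4.98, 4.85 and 5.07 in FVB controls and 7.55, 7.78 and 7.87 at 6 h. F1 controls lay at 5.04, 4.49, 5.57 and 4.88 and the 6 h arrays at 7.89 and 8.04. No treated array of either strain overlapped the controls, and the change was 2.77 ± 0.25 in FVB and 2.97 ± 0.26 in F1 (SE; 95% interval of the difference -0.52 to 0.93). Nrg1, a ligand of the ErbB receptors related to EGF, lay at 5.51, 5.34 and 5.25 in FVB controls and 7.92, 8.02 and 7.78 at 6 h. In F1 skin Nrg1 lay at 5.66, 5.55, 5.57 and 5.38 in controls and 7.98 and 8.42 at 6 h. Its change was 2.54 ± 0.27 in FVB and 2.66 ± 0.29 in F1, with an interval of the difference of -0.67 to 0.91. Phlda2, an imprinted growth regulator of the placenta, rose by 2.89 in FVB and 2.80 in F1, and Smim3, which encodes a small membrane protein, by 2.70 in FVB and 2.66 in F1.

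Slc22a4, the ergothioneine transporter, had the largest mean fall of the 8. Its log2 level was 8.94, 8.57 and 8.42 in FVB controls and 5.99, 5.81 and 5.81 at 6 h. In F1 skin Slc22a4 lay at 8.54, 9.11, 8.85 and 8.98 in controls and 5.94 and 5.91 at 6 h. The change was -2.77 ± 0.26 in FVB and -2.95 ± 0.28 in F1, an interval of the difference of -0.94 to 0.60. Bbox1, the last enzyme of carnitine synthesis, changed by -2.75 in FVB and -2.69 in F1, and Cfap57, named for a cilia and flagella protein, by -2.37 in FVB and -2.42 in F1. P2rx2, an ATP-gated ion channel, changed by -2.42 in FVB and -2.37 in F1, and its F1 arrays stood apart, at -1.72 and -3.02 for replicates 1 and 2.

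**Figure D2:**
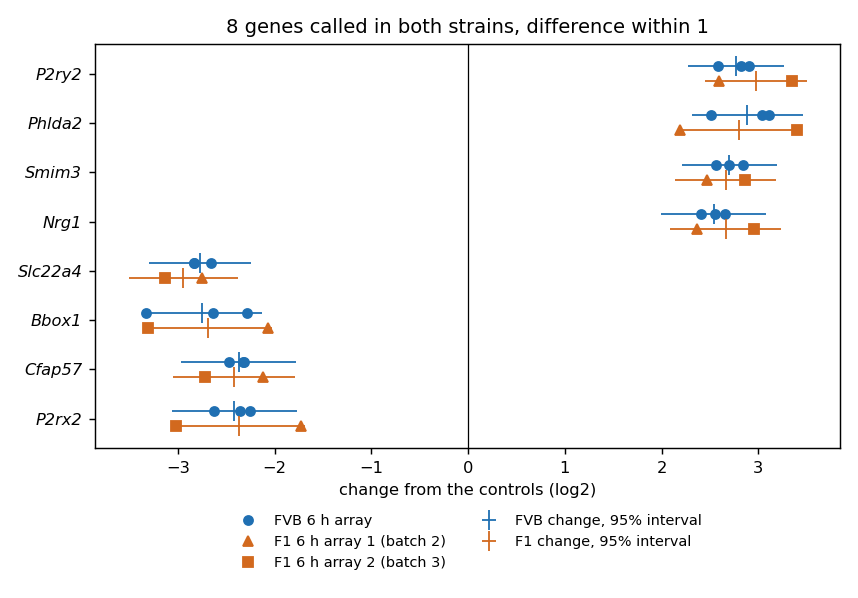
Log2 change from the strain's control mean for the 8 genes with the largest shared changes whose interval of the difference lies within 1; points are single 6 h arrays, vertical ticks the fitted change and bars its 95% interval. In each gene the FVB arrays (3) and the F1 arrays (2) lie on the same side of 0, as the choice of genes called in both strains favours. F1 replicate 2 of 6 h lies farther from 0 than replicate 1.

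Growth factor genes were called in the same direction in both strains. Of 9 EGF receptor ligands and receptors measured, 4 rose and 1 fell in both. The difference was below 0 for 8 of the 9, against 9571 of 18820 of all genes. Its list median was -0.28, between -0.74 and -0.15 over the 28 settings tried. Hbegf, an EGF receptor ligand that TPA is known to release, lay at 7.11, 6.74 and 6.64 in FVB controls and 10.85, 10.82 and 10.83 at 6 h. In F1 skin Hbegf lay at 7.31, 6.20, 6.94 and 6.27 in controls and 10.27 and 10.98 at 6 h. It rose 16-fold in FVB and 15.4-fold in F1, with an interval of the log2 difference of -1.42 to 1.31. Tgfa, another ligand, rose by 2.78 in FVB and 1.84 in F1, a difference of -0.94 ± 0.50 (unadjusted p 0.0654), and without F1 6 h replicate 2 its F1 change was 1.43 and no longer called (adjusted p = 0.072 in limma). Btc, betacellulin, fell by 1.05 in FVB and by 1.80 in F1. Of 11 feedback inhibitors of ERK signalling 3 rose in FVB and 4 in F1, and 1, Spred2, fell in F1, by 1.03, against -0.85 ± 0.21 in FVB. Dusp6, the ERK phosphatase, rose by 3.30 in FVB and 2.53 in F1. Of 9 AP-1 genes Junb was the only one called in both, with 1.49 in FVB and 1.56 in F1. Jun rose in FVB, by 1.19, and its F1 change was 0.21 ± 0.32: the 6 h arrays were 1.41, 1.11 and 1.06 above the FVB control mean and -0.01 and 0.43 from the F1 control means. That difference, -0.98 ± 0.44, had an unadjusted p of 0.0289 and an adjusted p of 1. Among 14 Egr, Myc and other immediate early genes 6 rose in each strain and 4 in both, with Ier3 at 1.88 in FVB and 1.70 in F1. Nr4a2, an orphan nuclear receptor, was called in F1 alone, 1.11 against 0.18 in FVB (difference 0.93 ± 0.34, unadjusted p 0.0092).

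Many NF-kappaB genes and neutrophil chemokines rose in both strains. Of 12 NF-kappaB subunits and feedback genes 7 rose in FVB, 9 in F1 and 6 in both. Bcl3, a nuclear IkappaB protein, rose by 3.77 in FVB and 4.03 in F1, Nfkb2, the p100 subunit precursor, by 1.77 in FVB and 1.77 in F1, and Tnfaip3, the A20 inhibitor, by 1.41 in FVB and 1.95 in F1. Of 11 CXC chemokines 7 rose in both strains. Cxcl1 lay at 4.72, 4.92 and 5.35 in FVB controls and 7.78, 8.75 and 8.25 at 6 h. In F1 skin Cxcl1 lay at 4.73, 4.37, 4.95 and 4.73 in controls and 7.14 and 8.28 at 6 h. The changes were 2.78, 3.75 and 3.25 on the FVB arrays and 2.30 and 3.73 on the F1 arrays, which overlapped. The fitted change was 3.26 ± 0.34 in FVB and 3.02 ± 0.36 in F1, and that of Cxcl2, a second ligand of CXCR2, was 4.35 in FVB and 4.71 in F1. The list median of the difference was 0.27 but differed in sign between the F1 batches, -0.25 with F1 batch 2 alone and 0.79 with batch 3 alone. Cxcl9, an interferon-induced ligand for T cells, was called in F1 alone, 2.54 against 0.91 (difference 1.64 ± 0.94, unadjusted p 0.0893).

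Among the 32 response lists the CC chemokines had the second highest median difference, after the sebaceous genes. Of 14 measured, 9 rose in FVB and 12 in F1, 9 of them in both, and the list median was 2.06 in FVB and 2.95 in F1. The median difference was 0.62, where all genes tested had -0.01, with 11 of 14 above 0, against 9249 of 18820 of all genes. It was 0.65 with F1 batch 2 alone, 0.68 with batch 3 alone, and between 0.56 and 0.84 over the 28 settings tried. The difference of no member was called in the reported fit, and 3 of 14 had an unadjusted p under 0.05. Ccl11, the eosinophil attractant eotaxin, lay at 7.65, 7.46 and 7.31 in FVB controls and 8.43, 8.57 and 8.84 at 6 h. In F1 skin Ccl11 lay at 6.64, 6.66, 6.55 and 6.34 in controls and 9.75 and 9.34 at 6 h. Its change was 1.14 ± 0.55 in FVB, not called, and 3.00 ± 0.59 in F1, called, a difference of 1.86 ± 0.80 (unadjusted p 0.0256, adjusted p 1 in limma). Ccl19, a ligand of CCR7 on dendritic and T cells, differed from its control means by 0.51, 0.47 and 1.09 on the FVB arrays and 2.69 and 2.58 on the F1 arrays. The strains did not overlap in that change, and the difference was 1.95 ± 0.79 (unadjusted p 0.0182). Ccl7 and Ccl2, monocyte attractants, rose in both, Ccl7 by 2.74 in FVB and 4.47 in F1 and Ccl2 by 3.31 in FVB and 4.49 in F1. Ccl20, the CCR6 ligand, rose by 4.12 in FVB and 4.07 in F1, and Ccl3, the macrophage inflammatory protein, by 4.92 in FVB and 4.25 in F1. For single genes, both F1 arrays lay to 1 side of all 3 FVB arrays in 5677 of 18820 genes, 30.2%, so such separation is common in these data. In the fit on the 12 arrays alone Ccl7, Ccl11, Ccl19 and Ccl22 were among the 11 genes called. The change of fibroblast markers was also higher in F1 than in FVB, with medians of 0.58 and -0.46 and a median difference of 1.12. The mean level of 10 fibroblast markers was 7.86 to 8.36 in FVB controls and 7.51 to 7.83 at 6 h. In F1 skin it was 7.19 to 7.84 in controls and 7.93 to 8.26 at 6 h. The part of these markers in the result was not tested.

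Members of the IL-6, IL-1 and IL-20 cytokine families rose in both strains. Of 12 IL-6 family and colony-stimulating factor genes 6 rose in FVB and 8 in F1, 6 of them in both. Il6 lay at 3.07, 3.51 and 3.01 in FVB controls and 6.83, 6.62 and 6.53 at 6 h. In F1 skin Il6 lay at 3.31, 3.08, 3.81 and 3.03 in controls and 5.91 and 7.48 at 6 h. The changes on the F1 arrays, 2.35 and 4.43, lay on either side of the 3 FVB arrays, 3.64, 3.42 and 3.34. The fitted change was 3.47 ± 0.38 in FVB and 3.39 ± 0.40 in F1. Socs3, the feedback inhibitor of that pathway, changed by 2.58 in FVB and 2.51 in F1. Of 12 IL-1 and IL-36 genes 5 rose in both, and the list median of the difference, -0.46, was below 0 in all 28 settings, from -0.64 to -0.30. Il1b, a pyrogenic cytokine, rose by 2.87 in FVB and 3.26 in F1 and Il1f6, IL-36 alpha, by 3.28 in FVB and 2.38 in F1. Of 14 genes of the list with TNF, TSLP and the IL-20 family 10 rose in both. Tslp, the epithelial alarmin that acts on dendritic cells, differed from its control means by 5.28, 4.96 and 4.22 on the FVB arrays and 3.29 and 3.60 on the F1 arrays, which lay below all 3. The fitted rise was 4.82 ± 0.47 in FVB and 3.45 ± 0.50 in F1, 28.2-fold and 10.9-fold, and the difference -1.37 ± 0.68 (unadjusted p 0.0499, adjusted p 1). Il24, of the IL-20 family, rose by 3.97 in FVB and 3.59 in F1. Among 20 interferon response genes 2 rose in FVB and 6 in F1, 2 of them in both. Gbp2, a guanylate-binding protein, rose by 1.56 in FVB and 2.90 in F1, a difference of 1.34 ± 0.69 (unadjusted p 0.0583), and the list median of the difference was 0.34, between 0.18 and 0.58 over the settings. Of 9 leukocyte adhesion molecules 2 rose in FVB and 5 in F1, with Icam1, the beta-2 integrin ligand, at 1.98 in FVB and 2.68 in F1.

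Stefins with antimicrobial proteins and stress keratins with small proline-rich proteins had the highest medians of the 32 lists in both strains. They were 3.81 and 2.99 in FVB and 4.02 and 3.34 in F1. Of 18 matrix proteases and inhibitors 12 rose in FVB and 10 in F1, 10 of them in both. Mmp13 lay at 5.16, 4.93 and 4.74 in FVB controls and 10.06, 10.07 and 9.87 at 6 h. In F1 skin Mmp13 lay at 4.38, 5.33, 6.04 and 4.17 in controls and 8.95 and 9.30 at 6 h. It rose by 5.06 ± 0.62 in FVB and 4.15 ± 0.66 in F1, with an interval of the difference of -2.73 to 0.91. Adamts4, an aggrecanase, rose by 4.87 in FVB and 4.52 in F1, and Timp1, an inhibitor of metalloproteinases, by 4.82 in FVB and 4.48 in F1. Of 8 hyaluronan genes 5 rose in FVB and 6 in F1, and Has2, a hyaluronan synthase, rose by 3.29 in FVB and 4.15 in F1. In the stress keratin list 12 of 16 members rose in both, with Krt6b, a keratin of wounded epidermis, at 4.43 in FVB and 4.94 in F1. That list's median difference was 0.36, and it changed sign with the F1 batch, -0.32 in batch 2 and 0.93 in batch 3. Of 15 stefins and antimicrobial proteins 11 rose in both. Lcn2, the siderophore-binding lipocalin, differed from its control means by 4.59, 4.97 and 5.30 on the FVB arrays and 5.74 and 6.77 on the F1 arrays, a rise of 31-fold and 76.4-fold. The difference was 1.30 ± 0.97 (unadjusted p 0.187). Saa3, a serum amyloid A, rose by 3.81 in FVB and 5.54 in F1 (difference 1.72 ± 1.04, unadjusted p 0.106).

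Among 17 suprabasal and cornified envelope genes 4 rose and 2 fell in FVB, and 3 rose and 3 fell in F1. Krt2, a keratin of the upper epidermis, differed from its control means by -0.48, 1.46 and 1.21 on the FVB arrays and -0.30 and -1.55 on the F1 arrays, and the strains overlapped. The difference was -1.65 ± 0.65 (unadjusted p 0.0153). Asprv1, the protease that processes filaggrin, rose in FVB by 1.76 and had an F1 change of 0.16 ± 0.58 (difference -1.60 ± 0.79, unadjusted p 0.0485, adjusted p 1 in limma). It was called in 1 of the 28 settings, the fit on the 12 arrays alone (adjusted p 0.0472). Alox8, a lipoxygenase known for its induction by TPA, rose by 3.91 in FVB and 4.66 in F1. Its difference, 0.75 ± 0.96, was -0.39 with F1 batch 2 alone. Mt4, the metallothionein of stratified epithelium, fell by 2.57 in FVB and by 3.79 in F1 (difference -1.22 ± 0.56, unadjusted p 0.0335). Slc7a11, the cystine transporter regulated by NRF2, rose by 2.90 in FVB and 4.31 in F1. Cldn8, a claudin of tight junctions, lay at 8.38, 8.16 and 7.77 in FVB controls and 5.12, 5.12 and 4.76 at 6 h. In F1 skin Cldn8 lay at 7.63, 8.21, 7.36 and 7.63 in controls and 5.98 and 5.30 at 6 h. It fell in both, with a difference of 1.03 ± 0.42 (unadjusted p 0.0179).

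Hair follicle and clock genes were among those that fell in both strains. Of 13 hair follicle stem cell genes 6 fell in FVB and 8 in F1, 6 of them in both, and the list medians were -1.16 and -1.11. Lgr5, the R-spondin receptor of follicle stem cells, lay at 9.24, 9.02 and 8.76 in FVB controls and 6.75, 6.69 and 5.82 at 6 h. In F1 skin Lgr5 lay at 9.76, 9.26, 8.98 and 9.22 in controls and 6.66 and 6.28 at 6 h. The fall was by 2.59 in FVB and by 2.83 in F1. Krt15, a keratin of bulge and basal cells, fell by 2.71 and by 2.65. Sostdc1, a secreted BMP and Wnt antagonist, fell in both but differed from its control means by -3.31, -3.58 and -3.61 on the FVB arrays and -1.74 and -2.42 on the F1 arrays. Its difference of 1.42 ± 0.43 had an unadjusted p of 0.00201 and an adjusted p of 0.885. Of 15 sebaceous gland lipid genes 3 fell in FVB, and 2 rose and 1 fell in F1. The list median was -0.72 in FVB and 0.05 in F1. The median difference was 0.71, between 0.53 and 0.92 over the settings. Of the 15 genes 12 lay above 0, against 9249 of 18820 of all genes. Adipocyte and fibroblast markers lay above FVB in F1 as well, with median differences of 1.01 (11 of 11 genes above 0) and 1.12 (9 of 10), and their part in this was not tested. Mc5r, the melanocortin receptor of sebocytes, fell in FVB, by 1.99, with -1.98, -1.91 and -2.07 on its arrays, and stood at -0.04 and -0.75 on the F1 arrays (difference 1.60 ± 0.52, unadjusted p 0.00376). Of 15 circadian clock genes 3 rose and 5 fell in both. The difference was below 0 for 13 of the 15, with a median of -0.30, between -0.44 and -0.16 over the settings. Hlf, a clock output factor, fell by 2.68 in FVB and by 3.20 in F1, and Bhlhe40, a clock repressor, rose by 2.26 in FVB and 1.80 in F1. Npas2, a partner of Bmal1, was called in F1 alone, 1.01 ± 0.29 against -0.20 ± 0.27 in FVB (difference 1.21 ± 0.40, unadjusted p 0.00397). The time of day of sampling is not given in the labels.

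Some cell cycle genes fell in both strains, and genes of polyamine and ribosome synthesis rose. Of 21 mitosis genes 9 fell in FVB and 4 in F1, and of 17 DNA replication genes 5 and 2. Ccna2, cyclin A2, fell by 1.92 in FVB and by 1.12 in F1 (difference 0.80 ± 0.40, unadjusted p 0.0519), and its F1 change without F1 6 h replicate 2 was -0.88 and not called (adjusted p = 0.237 in limma). The 3 other mitosis genes called in both, Ccnb2, Mki67 and Cenpf, lost the F1 call without that array as well, with changes of -1.08, -1.01 and -1.04. Of 17 polyamine and ribosome biogenesis genes 14 rose in FVB and 12 in F1, 11 of them in both. Odc1, ornithine decarboxylase, the enzyme that sets the rate of polyamine synthesis, rose by 2.73 in FVB and 2.35 in F1. Of 15 p53 target and arrest genes 5 rose and 2 fell in FVB, and 2 rose and 2 fell in F1. Sesn1, a stress-induced sestrin, fell by 1.70 in FVB and by 2.10 in F1.

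Of 13 collagen genes 1 fell in both, Col3a1, a fibrillar collagen, by 2.06 in FVB and by 1.57 in F1, and its F1 call was lost without F1 6 h replicate 2 (change -1.02, adjusted p = 0.636 in limma). Of 13 basal keratinocyte and hemidesmosome genes 3 rose and 1 fell in FVB, and 1 rose and 1 fell in F1. Over all genes tested, 6.45% rose and 5.88% fell in FVB, and 5.44% and 4.98% in F1. A single call in a list of this size is near those shares. Of 12 sterol synthesis genes 1 rose and 2 fell in FVB and 1 rose in F1, and Ch25h, cholesterol 25-hydroxylase, rose by 3.84 in FVB and 4.22 in F1. Of 21 Wnt, BMP and Notch regulators of the follicle 2 fell in FVB and 5 in F1. The difference was below 0 for 17 of the 21, with a median of -0.435, between -0.53 and -0.26 over the settings. Across the 32 lists, the 2 members of largest difference in each make 64 genes, whose differences ran from -1.65 to 1.95, and 0 of them were called in limma, with 16 at an unadjusted p under 0.05. Beside those already named, a difference over 1 in size was measured for 7. It was 1.65 ± 1.14 for Cxcl13, a B cell attractant, 1.20 ± 0.59 for Rsad2, the antiviral viperin, and 1.40 ± 1.28 for S100a8, a calprotectin subunit. It was 1.37 ± 0.69 for Mgst1, a microsomal glutathione transferase, 1.05 ± 0.82 for Sprr2b, a cornified envelope precursor, and 1.04 ± 0.82 for Col1a2, a chain of type I collagen. Chac1, a glutathione-degrading enzyme, had -1.20 ± 0.72.

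**Figure D3:**
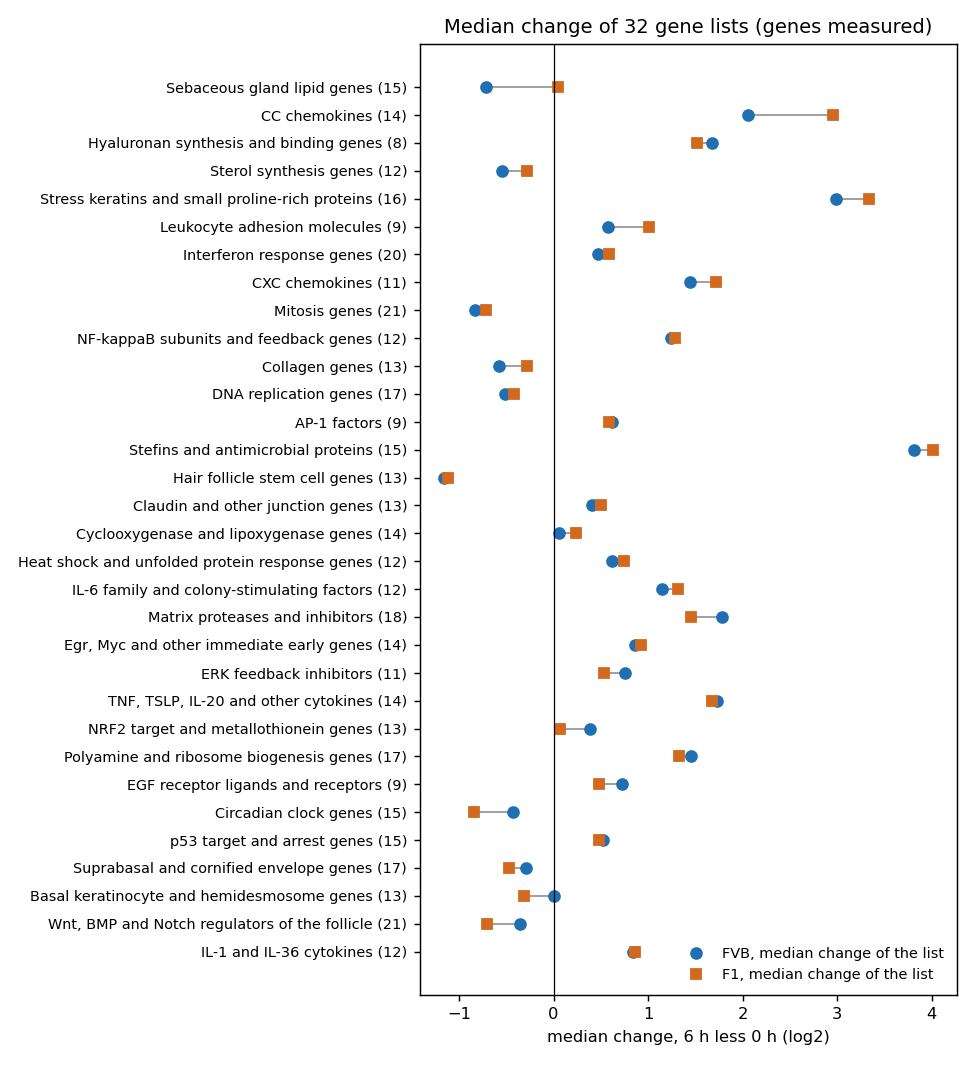
Median log2 change at 6 h of 32 gene lists in FVB (circles) and F1 (squares), with the number of genes measured in brackets, ordered by the median of the genes' differences. The medians of both strains lie close together in most lists, and the widest gaps are those of sebaceous gland lipid genes, -0.72 and 0.05, and CC chemokines, 2.06 and 2.95.

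The 10 genes of smallest unadjusted p for the difference were chosen after their values were seen, and none passed the adjustment in the reported fit. In all 10 the estimated change in F1 had the opposite sign to that in FVB, which choice by the difference favours, and some F1 changes were near 0. Zfp385b, a zinc finger gene, differed from the control means by -1.19, -0.74 and -1.60 on the FVB 6 h arrays and 0.67 and 0.12 on the F1 6 h arrays, which did not overlap. It fell in FVB, by 1.18, and the F1 change was 0.39 ± 0.23, a difference of 1.57 ± 0.32 with an adjusted p of 0.258 in limma. It was called in 4 of the 28 settings, the most of any gene. Avpr1a, a vasopressin receptor, lay at 8.27, 8.13 and 7.94 in FVB controls and 6.03, 5.80 and 6.38 at 6 h. In F1 skin Avpr1a lay at 6.81, 7.48, 7.01 and 7.68 in controls and 7.53 and 7.30 at 6 h, so F1 treated and control arrays overlapped. The fall in FVB was by 2.04, the F1 change 0.17 ± 0.35 and the difference 2.21 ± 0.48 (adjusted p 0.258). Mtx2, a metaxin of the mitochondrial outer membrane, lay at 10.13, 10.09 and 10.01 in FVB controls and 9.14, 9.27 and 8.81 at 6 h. In F1 skin Mtx2 lay at 8.96, 8.80, 8.77 and 8.59 in controls and 9.31 and 9.61 at 6 h. FVB arrays fell below their controls and F1 arrays lay above theirs, with a difference of 1.69 ± 0.40, called in 3 of the 28 settings.

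Pla2g2f, a secreted phospholipase A2 of the suprabasal epidermis, had the largest negative difference of the 10. It lay at 8.84, 8.84 and 8.63 in FVB controls and 10.48, 10.73 and 9.82 at 6 h. In F1 skin Pla2g2f lay at 10.07, 10.00, 10.13 and 10.37 in controls and 9.82 and 9.62 at 6 h, and the treated arrays lay below all 4 controls. It rose 2.97-fold in FVB, the F1 change was -0.42 ± 0.38, and the difference was -1.99 ± 0.52, called without the 2 arrays of narrow range and with cyclic loess. Papss2, which makes the sulfate donor PAPS, lay at 8.09, 8.69 and 9.44 in FVB controls, a wide spread, and 8.04, 8.03 and 7.92 at 6 h. Its F1 arrays rose from 7.53, 7.16, 7.34 and 7.32 to 8.56 and 8.54, and the difference was 1.96 ± 0.46. Differences of the other 5 were smaller. They were 1.20 ± 0.31 for Flacc1, -1.27 ± 0.33 for Csgalnact1, which starts chondroitin chains, -1.19 ± 0.29 for Ssh3, a cofilin phosphatase, -1.13 ± 0.25 for Ccdc9 and -1.09 ± 0.28 for Tmc6. In these 10 genes the F1 arrays of batches 2 and 3 lay on the same side of all 3 FVB arrays, which their choice by p favours. Of the 260 genes with an unadjusted p under 0.05 and a difference of at least 1, 250 had such a separation.

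**Figure D4:**
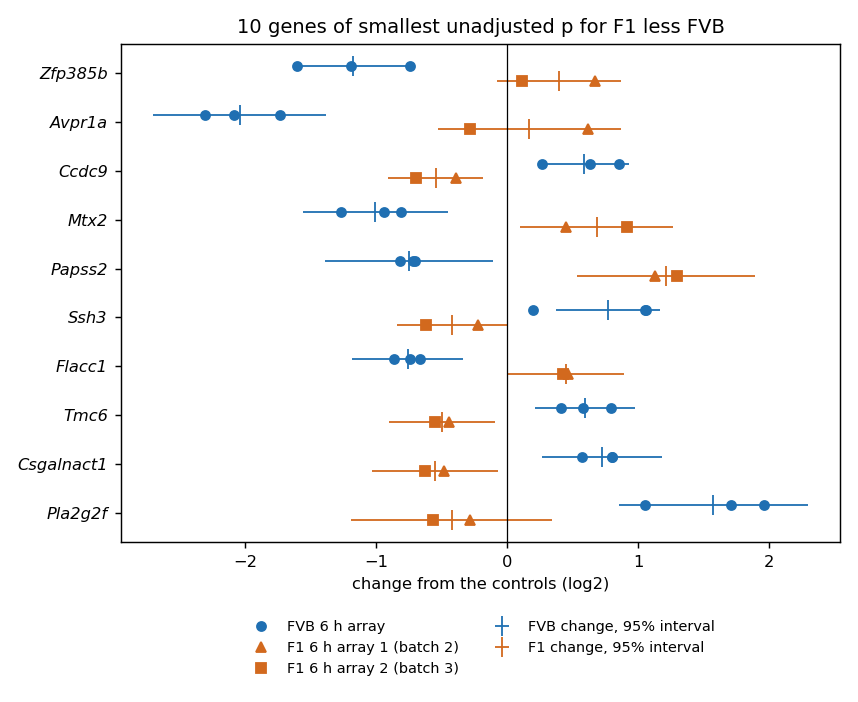
Log2 change from the strain's control mean for the 10 genes of smallest unadjusted p, drawn as single 6 h arrays, fitted changes and 95% intervals. FVB and F1 arrays do not overlap in any of the 10, and both F1 arrays lie on the same side of the 3 FVB arrays, which choice by p favours.

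Markers of other cell types were followed in both strains. Of 15 neutrophil markers 8 rose in FVB and 4 in F1. Their mean level was 4.41 to 4.53 in FVB controls and 5.72 to 6.70 at 6 h, and 4.33 to 4.78 in F1 controls and 5.80 to 6.12 at 6 h. Cxcr2, the neutrophil chemokine receptor, rose by 5.41 in FVB and 4.82 in F1, and the list median of the difference was -0.55, between -0.69 and -0.23 over the settings, the latter without FVB 6 h replicate 3. Fibroblast markers had a median of -0.46 in FVB and 0.58 in F1, a difference of 1.12, with 1.11 in batch 2 and 1.00 in batch 3. Dpt, dermatopontin, differed from its control means by -0.94, -1.52 and -1.47 on the FVB arrays and 0.78 and 0.54 on the F1 arrays (difference 1.97 ± 0.86, unadjusted p 0.0271). Adipocyte markers lay above FVB in F1 for 11 of 11 genes, against 9249 of 18820 of all genes, with a median difference of 1.01. Over the settings that median ran from 0.57, without the 2 FVB controls that carried liver transcripts, to 1.33 with F1 batch 3 alone. Mast cell markers lay above FVB for 10 of 11, with a median of 0.45 and a range of 0.35 to 1.05, the highest with dim probe sets left out. Of these 11 genes 1 rose and 3 fell in FVB, and 1 rose and 1 fell in F1. Cpa3, the mast cell carboxypeptidase, fell in FVB, by 1.42, and its F1 change was -0.08 ± 0.54. Of 10 endothelial markers 2 rose in both strains and 0 fell in either, with medians of 0.14 in FVB and 0.67 in F1. Their median difference was 0.35, between 0.18 and 0.52 over the settings. The largest was that of Emcn, an endothelial sialomucin. Emcn differed from its control means by -0.41, -0.68 and -0.19 on the FVB arrays and 0.70 and 1.10 on the F1 arrays (difference 1.33 ± 0.42, unadjusted p 0.00276). No gene of these lists was called in the difference, and 0 of 18820 were in the whole table. The median difference of 15 hair shaft genes was -2.03, and it was -2.87 with F1 batch 2 alone, which holds the control with the high hair shaft level, and -1.04 with batch 3 alone, and -0.80 without that control. For 22 liver transcripts the median was 0.66, and -1.26 without FVB control replicates 2 and 3. Neither list gave a call in FVB or F1. Skeletal muscle markers had a median change of 1.44 in FVB and 1.70 in F1, with 1 of 15 called in FVB and 0 in F1, and a median difference of 0.34, which was -0.31 without F1 control replicate 2.

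The 4 h, 12 h and, for FVB, 2 h arrays show how these genes stood around 6 h. They share the controls of 0 h with the comparison and so are not independent of it. The 778 shared rises had a median of 1.11 in FVB at 2 h and 1.29 at 12 h, and of 1.51 in F1 at 4 h and 0.941 at 12 h. Cxcl1 stood at 4.22 in FVB at 2 h and at 2.20 at 12 h, and in F1 at 4.20 at 4 h and 1.47 at 12 h. Mmp13 stood at 1.84 and 5.09 in FVB at 2 and 12 h and at 2.94 and 5.08 in F1 at 4 and 12 h. Ccl11 stood at 1.13 in FVB at 2 h and at -0.46 at 12 h, and in F1 at 2.87 at 4 h, called, and 0.41 at 12 h. Avpr1a stood at -1.82 and -1.94 in FVB at 2 and 12 h, both called, and at -0.10 and -0.36 in F1 at 4 and 12 h. Pla2g2f stood at 1.34 and 1.67 in FVB, both called, and at -0.72 and -0.20 in F1.

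**Figure D5:**
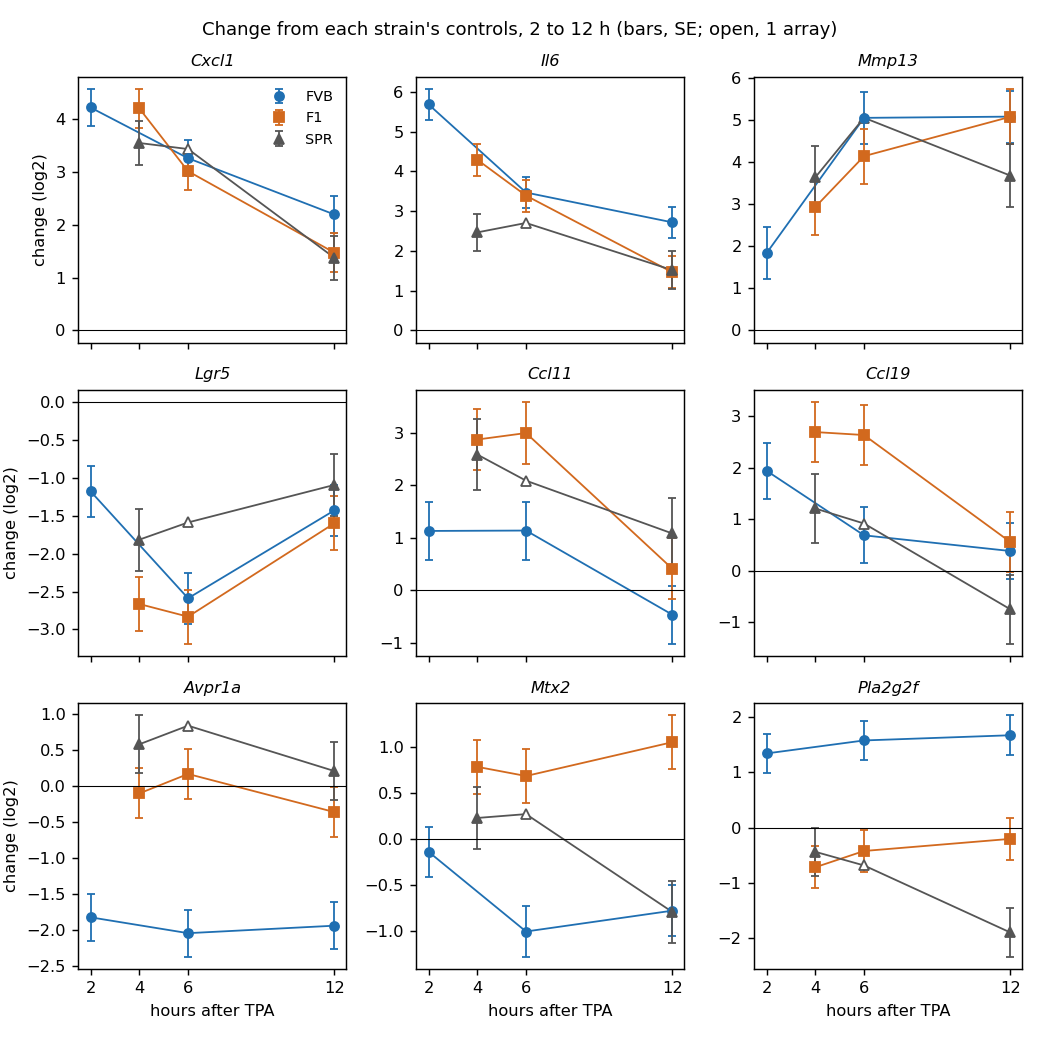
Log2 change from each strain's controls against hours after TPA for 9 genes in FVB, F1 and SPR skin, with standard errors of the fit; the open symbol is a single SPR array at 6 h without an error. Cxcl1, Il6, Mmp13 and Lgr5 keep 1 sign in FVB and F1 at every time drawn, Avpr1a lies between -2.04 and -1.82 in FVB and between -0.36 and 0.17 in F1, and Pla2g2f lies above 0 in FVB and below 0 in F1.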

How the data were processed

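Dorsal skin RNA was measured on 69 Affymetrix arrays, of which 12 form the comparison. The authors deposited log2 expression for 35556 probe sets, made with RMA (no version) per the submitters' processing notes. RMA corrects background and brings arrays to a common distribution. No batch adjustment is described in the labels or notes used here. Gene means of batches 1 and 2 lay within an SD of 0.0402 of each other over all their arrays, and those of batches 2 and 3 within 0.0389. Between the FVB and F1 control means the SD was 0.351. Whether the deposited values had been aligned between batches, and whether this altered changes, was not tested. No difference in level between strains was therefore tested. One symbol was found for 21218 probe sets, several for 1881, which were not used, and none for 12457, and the probe set of highest mean stood for each of 18820 genes. Probe sets were not checked for sequence differences between FVB/N and Spret/Ei.

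Changes were fitted by lmFit and eBayes of limma 3.58.1, in R 4.3.3, over 66 arrays of known strain and time, as 27 group means and a term for batch 3 against batch 2, with 38 residual degrees of freedom, and tested on simulated data. Errors after ± are standard errors, intervals are 95%, and p-values are two-sided. The 3 arrays of open strain entered no test. Array number limits the precision, as does the spread taken from arrays outside the comparison, and intensities have no read depth.

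The comparison, gene lists and tests were chosen with earlier results of these data known. Genes are named by rule: called differences and opposite calls (there were 0 of each), the 4 largest rises and falls called in both strains with an interval of the difference within 1, and the 2 members of each response list of largest difference. Genes described as called in both, marker genes and the 10 of smallest p were added after values were seen. In FVB, arrays of 0 h and 6 h with the same replicate number deviated together (correlations of 0.367, 0.105 and 0.259), so a block on that number was fitted as an alternative. In all 28 alternatives were tried.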

Additional observations from a re-analysis of the deposited data

Results flagged for a closer look

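The 4 untreated F1 arrays were searched for single arrays far from the other 3, over 202 genes and 14 marker lists. Such a search marks about 1 in 20 groups by chance, and it marked 8 of the 202 genes and 1 of the 14 lists. The mean log2 level of hair shaft and inner root sheath markers was 8.84 in replicate 1, against at most 4.75 in the others. In the same array Krt33a, a hair keratin, stood at 10.33, against 4.43 in the next, and Krt71, an inner root sheath keratin, at 11.05, against 5.79. Chac1 was high there as well, at 8.57, while Casp14, at 10.23, and Per3, at 8.21, were low. Replicate 2 had a high Per1, 9.48, and a low Socs3, 6.35, and replicate 3 a high Csf1, 7.05.

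One array labelled 6 h has no strain in the labels and entered no comparison. In it 753 of the 778 genes that rose in both strains lay above all 7 control arrays of FVB and F1. Of the 633 that fell, 613 lay below all of them. These genes were called against the same 7 controls, which favours such a separation, and the share of all genes so placed was not counted.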

How the results depend on the processing

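An F1 change rests on 2 treated arrays in different batches, and errors also depended on arrays outside the comparison. The median standard error of the difference was 0.372 as reported and 0.299 without the 2 arrays of narrow range. Of 28 settings, 5 called any difference and they named 18 genes in all. The difference calls were 5 without the 2 arrays of narrow range, 10 with cyclic loess, 11 on the 12 arrays alone and 1 with the replicate block, and between 0 and 1 when each replicate was left out. F1 calls were 478 with batch 2 alone and 3569 with no fold threshold, and 825 to 2281 with a replicate left out. FVB calls were 4653 with no fold threshold. Rises in both were 1292 with no fold threshold and 248 with F1 batch 2 alone, and 405 to 782 with a replicate left out; falls in both were 1400, 183, and 296 to 702. Opposite calls numbered 1 with no fold threshold and up to 2 with a replicate left out. The cause of these shifts was not tested, apart from the lower threshold. The difference of Alox8 was -0.39 with F1 batch 2 alone and from -0.27 (without F1 6 h replicate 2) to 1.77 with a replicate left out. That of Col1a1 was -0.065 with batch 3 alone, and that of Trp53inp1 ran from -1.30 to 0.35 (without FVB 6 h replicate 3) with a replicate left out. Of 123 genes named as changed in both strains, 40 lost a call when some replicate was left out, all 40 of them without F1 6 h replicate 2. The replicate block gave 2302 FVB and 1816 F1 calls, with 742 rises and 573 falls in both. Same-numbered F1 arrays correlated at 0.066 and -0.116, but these also share a batch, and with 2 arrays at 6 h the deviations mirror each other, so the values do not bear on pairing in F1.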

Other observations

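SPR, the Spret/Ei parent strain, has 1 array at 6 h, so its changes are values without a test, and that array is in batch 3 while both SPR controls are in batch 2, so each change crosses batches and was fitted with the batch term. The genes that rose in both FVB and F1 had a median of 1.34 on it, with 748 of 778 above 0. Those that fell had a median of -1.16, with 625 of 633 below 0. The shares of all genes above and below 0 were not counted for that array. Its Tslp change was 4.55, against 4.82 in FVB and 3.45 in F1. Its change was -0.68 for Pla2g2f, 0.84 for Avpr1a and 1.72 for Papss2, in each case of the same sign as F1 and of the opposite sign to FVB. These genes were picked from those of smallest unadjusted p for the difference, and the signs of the others are not given. The share of all genes with such signs was not counted. The F1 changes of Pla2g2f and Avpr1a were not called, so a shared sign carries little for them. For Mc5r the SPR change was -2.44, nearer FVB, at -1.99, than F1, at -0.39. SPR and F1 arrays share batches that hold no FVB array.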
